A study of Mus musculus with 3 samples.

Results

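Endothelial cells line the blood and lymphatic vessels, and 309 of the 27951 cell barcodes in these back skin libraries were selected as such by their transcripts. A barcode was kept when it had at least 500 genes, under 15% mitochondrial UMIs (unique molecular identifiers, the counted transcripts), under 0.3% Krt5 and Krt14, no Ptprc, under 0.1% Col1a1 and a UMI of at least 3 of the 6 genes Pecam1, Cdh5, Flt1, Egfl7, Emcn and Kdr. The selection found 82 cells in the control, 96 in the 2-week knockout and 131 in the 3-week knockout, which is 1.63% (1.30 to 2.02), 0.973% (0.789 to 1.19) and 1.31% (1.10 to 1.55) of the 5022, 9869 and 9993 barcodes past the gene and mitochondrial filters. All intervals are exact 95% intervals and cover counting error only. Of the members, 8, 7 and 6 cells stood at the threshold with 3 of the 6 genes, and 11, 8 and 14 barcodes that met every other limit had 2 of them.

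Each group was 1 library of dissociated C57BL/6 skin. The control carried K5-Cre-er, 1 floxed Piezo1 allele (Piezo1fl/+) and Tdfl/+ and was taken at P62. The 2-week knockout carried K5-Cre-er, Piezo1fl/fl and Tdfl/+ and was also taken at P62. The 3-week knockout carried K5-Cre-er, Piezo1fl/fl and Tdfl/fl and was taken at P71, so its age, its time after treatment and its second floxed Td allele cannot be told apart. Every mouse received tamoxifen from P48 to P52, including the control, and all groups share the Cre driver. The keratin 5 promoter that drives the Cre is active in basal keratinocytes, so endothelial cells are not the cells in which the labels place the deletion. No group has a replicate, so no difference below has a replicate check and no test was possible.

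Blood capillaries of the skin exchange fatty acids and oxygen with the tissue, venules admit leukocytes through selectins, and lymphatic vessels drain fluid under the control of the transcription factor Prox1. Endothelial cells respond to blood flow through the transcription factors Klf2 and Klf4, and immediate early genes such as Fos and Jun are switched on within minutes of many stimuli.

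The depth behind the summed values was 869967, 802032 and 1291601 UMIs in the members of the control, 2-week and 3-week libraries, with medians of 7685.5, 5505.5 and 7060.0 UMIs per cell. The libraries shared 17 to 29 barcodes in pairs, and no barcode was a member in more than 1 library. Scrublet called 1, 4 and 3 members doublets, and these were kept. The abundant transcript Gm42418 took 10.6% of the member UMIs in the control against 5.01% and 4.11% in the knockouts. Ribosomal protein genes went the other way, with 12.3% in the control, 17.8% in the 2-week and 16.7% in the 3-week knockout. Levels are CPM, the UMIs of a gene scaled to the same member total in every library, and a fold compares the CPM of 2 libraries.

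The label was checked with 20 further genes of endothelium that the selection did not use. Of these, 18 were at least 4-fold higher in the members than in all other cells of the same library in each of the 3 libraries, and the median over the 20 of the lowest log2 ratio was 4.66. Cldn5, the tight junction claudin of endothelium, was measured at 746 CPM in the control, 408 in the 2-week and 701 in the 3-week knockout. Cd93 was measured at 589.7 CPM in the control, 501 in the 2-week and 347 in the 3-week knockout. Cd34, which other skin cells also make, and Tspan18 were the exceptions, with lowest log2 ratios of 1.16 and 1.5. Because the cells were chosen by genes of the same cells, these values describe the members and test nothing. The highest ratios over other cells belonged to Fabp4, Cdh5, Adgrf5, Cldn5, Ccl21a and Selp. Ccl21a is a chemokine of lymphatic endothelium, and its place in this list shows that the selection did not take blood endothelium alone.

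Clustering the 309 cells gave 9 sub-clusters, and marker genes told them apart as shown in the plot of marker levels. Sub-cluster 0 (77 cells) was capillary-like: 7 of its 10 leading genes were capillary markers, among them Timp4, Cd36, Btnl9, Rbp7, Gpihbp1, Fabp4 and Car4. Cd36, the fatty acid receptor, reached 3367 CPM there and 199.5 to 676 CPM in sub-clusters 1, 2, 3 and 7. Sub-cluster 3 (26 cells) was venous-like and was led by Selp, Ackr1 and Sele, the selectins and the chemokine receptor through which venules receive leukocytes. Selp reached 4359 CPM in it and 2.38 CPM in sub-cluster 0. Sub-clusters 1 (59 cells, led by Iigp1, Rsad2 and Sema7a), 2 (41 cells, led by Ccl5, Nefm and Ifit1) and 7 (18 cells, led by Kcnj15, Slc14a1 and Cyp1a1) had too few vessel markers among their leading genes for a name. In sub-cluster 2, Ccl5 and Nefm were each found in only 2.44% of the cells, and Ifit1 in 36.6%.

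Sub-clusters 5 (24 cells) and 8 (17 cells) were lymphatic-like. Prox1 was at 1150.2 and 707 CPM in them and at most 17.6 CPM in sub-clusters 0, 1, 2, 3 and 7. Lyve1, the hyaluronan receptor of lymphatic capillaries, was at 161 CPM in sub-cluster 5 and 2034 CPM in sub-cluster 8, and the matrix protein Reln at 346 and 1088 CPM. Flt4, the receptor for lymphatic growth factors, was at 323 and 644 CPM. The 2 remaining sub-clusters held RNA of other cell types. Sub-cluster 4 (25 cells) was led by the mural and connective tissue genes Rgs5, Mgp, Col3a1 and Acta2, with Rgs5 at 1208 CPM. Sub-cluster 6 (22 cells) was led by Sprr1a, Krtdap, Ly6d and Krt10, with Krt10 at 4221 CPM against 39.0 to 126 CPM in the other 8. Its median of 20722 UMIs per cell was the highest, it held 15.8% of all member UMIs and it contained 4 of the 8 doublet calls.

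**Figure D1:**
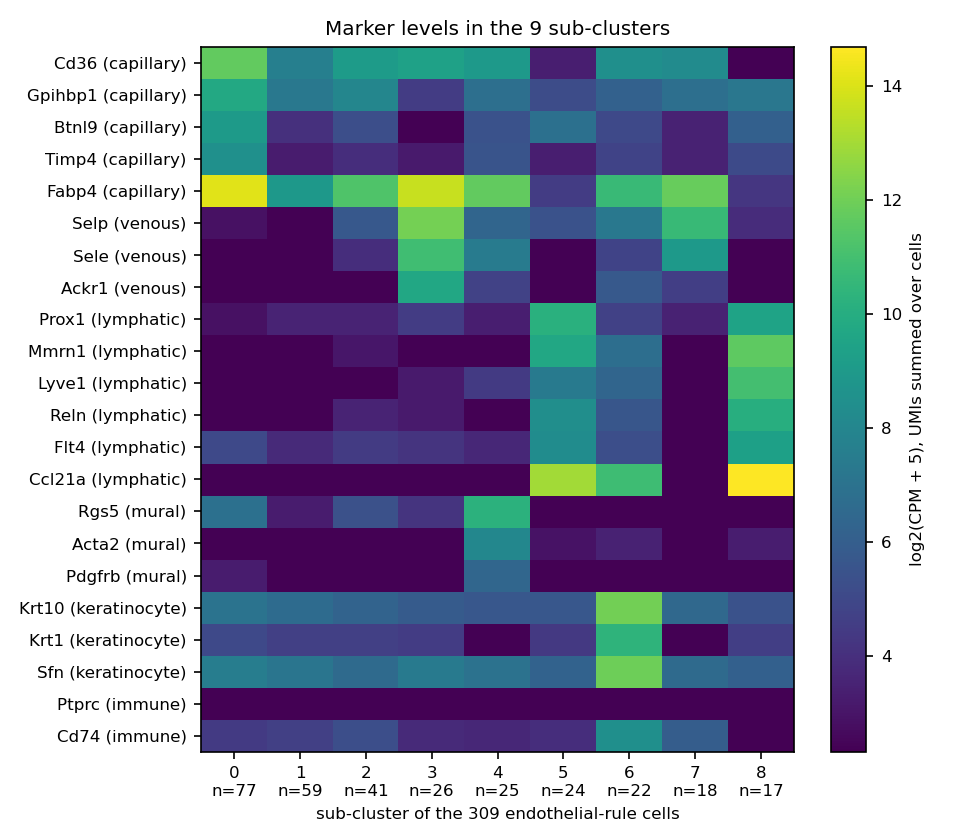
Marker genes (rows, with the vessel or cell type they mark) in the 9 sub-clusters (columns, with the number of cells n), coloured by log2 of the summed CPM plus 5. Capillary genes peak in sub-cluster 0, selectins in sub-cluster 3, lymphatic genes in sub-clusters 5 and 8, Rgs5 and Acta2 in sub-cluster 4 and keratins in sub-cluster 6, while Ptprc is at 0 by selection.

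The libraries held unequal numbers of lymphatic cells. Cells with at least 2 of Prox1, Lyve1, Flt4, Mmrn1, Reln and Pdpn numbered 12 of 82 in the control (14.6%, 7.80 to 24.2), 3 of 96 in the 2-week knockout (3.13%, 0.649 to 8.86) and 30 of 131 in the 3-week knockout (22.9%, 16 to 31.1). After each cell was thinned to 2000 UMIs the shares were 12.3%, 2.17% and 20.3%. Sub-cluster 8 held 2 control cells, no 2-week cell and 15 of the 3-week cells. The lymphatic sub-clusters were built with the same genes, so their sizes are given as a description. The capillary-like sub-cluster 0 held 23, 15 and 39 cells. With 1 library a group, a difference between mice or dissociations cannot be told apart from one between genotypes.

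**Figure D2:**
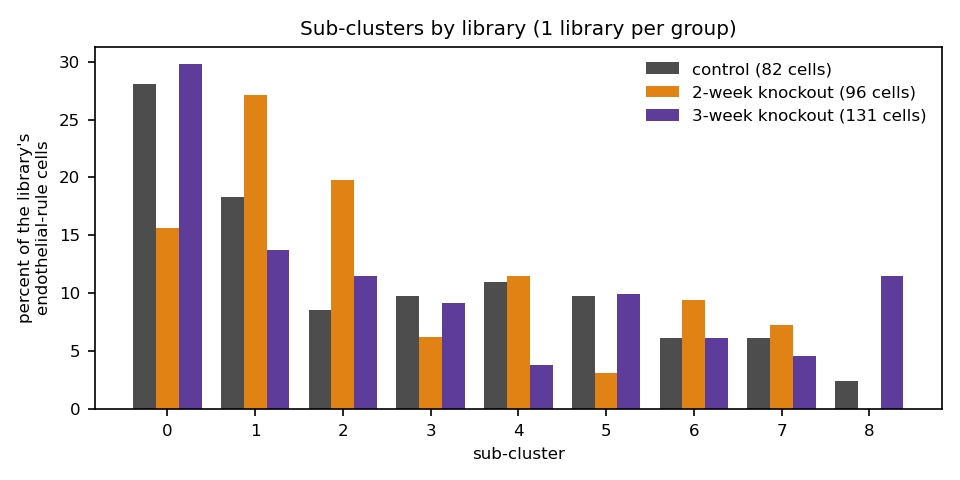
Percent of each library's endothelial cells in sub-clusters 0 to 8, with 82, 96 and 131 cells in the control, 2-week and 3-week knockout libraries. The 2-week knockout has no bar at sub-cluster 8, and the 3-week knockout has its highest bar at sub-cluster 0.

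Because lymphatic, mural and keratinocyte RNA was unevenly spread, the main values are also given for the 221 cells (58, 73 and 90) of sub-clusters 0, 1, 2, 3 and 7, called the 5 sub-clusters here, which no lymphatic, mural or keratinocyte gene led; this choice was made after the sub-clusters were seen. Keratinocyte markers summed to 1524 CPM in the control members, 5591 in the 2-week and 5991 in the 3-week members, and to 389.6, 678 and 1280.4 CPM in the 5 sub-clusters, with all 12 detected in every library. Mural markers summed to 544, 734 and 373 CPM in all members and to 327, 178 and 290.5 CPM in those sub-clusters. Fibroblast markers summed to 129.9, 173 and 108 CPM, and immune markers to 19.5, 32.4 and 169 CPM with Ptprc at 0 throughout.

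Between the 2-week knockout and the control, 3172 genes had enough UMIs to be ranked. At least 2-fold higher were 50 (1.58%) and at least 2-fold lower 78 (2.46%), and with a threshold of 1.5-fold 223 (7.03%) were higher and 236 (7.44%) lower. Capillary genes were lower together. Of 13 ranked capillary markers, 9 were at least 1.5-fold lower and none was higher, with a median log2 ratio of -1.24 in all members and -1.24 in the 5 sub-clusters, beside a median of 0.01 over all ranked genes. Of 8 ranked genes of fatty acid and lipid handling, 7 were lower and none higher, with medians of -1.65 and -1.52. Fabp4, Cd36 and Gpihbp1 stand in both lists. The 5 sub-clusters did not have the same make-up in both libraries. The capillary-like sub-cluster 0 was 23 of their 58 control cells and 15 of their 73 2-week cells.

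Fabp4, the fatty acid binding protein of capillary endothelium and adipocytes (chr3:10204088-10208576, mm10), was measured at 6969 CPM (6795 to 7147) in the control, 1466 CPM (1384 to 1552) in the 2-week knockout and 5174 CPM (5051 to 5299.8) in the 3-week knockout. It was found in 63.4%, 34.4% and 45.8% of the cells. The 2-week library stood far below both others, and the control and 3-week libraries were closer. Mural cells, which surround vessels, had the same order of libraries, at 834, 91.2 and 356 CPM from 105, 17 and 156 UMIs. The 2-week level was 4.75-fold lower (4.46 to 5.06) than in the control. In the 5 sub-clusters the levels were 9956, 2261 and 9931 CPM, and the 3-week ratio to control there was 0.997 (0.960 to 1.04).

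Cd36 (chr5:17781690-17888801), the fatty acid receptor, was at 1151 CPM in the control, 307 in the 2-week and 756 in the 3-week knockout, and its 2-week level was 3.75-fold lower (3.26 to 4.33). Gpihbp1 (chr15:75596628-75599481), which carries lipoprotein lipase to the capillary lumen, was at 293 CPM in the control, 93.5 in the 2-week and 242 in the 3-week knockout and was 3.13-fold lower (2.41 to 4.11) at 2 weeks. Lpl, the lipase itself, was at 51.7 CPM in the control, 12.5 in the 2-week and 28.6 in the 3-week knockout. These 3 genes had the same order of libraries, lowest at 2 weeks. Rbp7, a retinol binding protein, was at 179 CPM in the control, 54.9 in the 2-week and 101 in the 3-week knockout, and the butyrophilin-like gene Btnl9 at 138 CPM in the control, 41.1 in the 2-week and 129 in the 3-week knockout. Timp4, a metalloproteinase inhibitor, rested on few UMIs: 55 in the control, 5 in the 2-week and 132 in the 3-week knockout.

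Angptl4, a secreted inhibitor of lipoprotein lipase, and Plin2, a coat protein of lipid droplets, were low at both times. Of the ranked lipid genes they had the largest 3-week ratios below control. Cd36, Lpl and Rbp7 were also below control at 3 weeks, by less. Angptl4 was at 191 CPM in the control, 54.9 in the 2-week and 55.0 in the 3-week knockout. Plin2 was at 95.4 CPM in the control, 29.9 in the 2-week and 44.1 in the 3-week knockout. These 5 sub-clusters held 245, 79.9 and 74.6 CPM of Angptl4. Plin2 was also lower in keratinocytes, at 93.9, 16.8 and 38.9 CPM. Angptl4 too was lower in both knockouts in keratinocytes, at 37.2, 25.6 and 17.9 CPM, and in mural cells, at 199, 102 and 50.2 CPM. The differences of both genes were therefore not limited to endothelial cells. Over other cells the 8 lipid genes had a 2-week median log2 ratio of -0.63 in keratinocytes and -1.74 in the 73 mural cells.

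**Figure D3:**
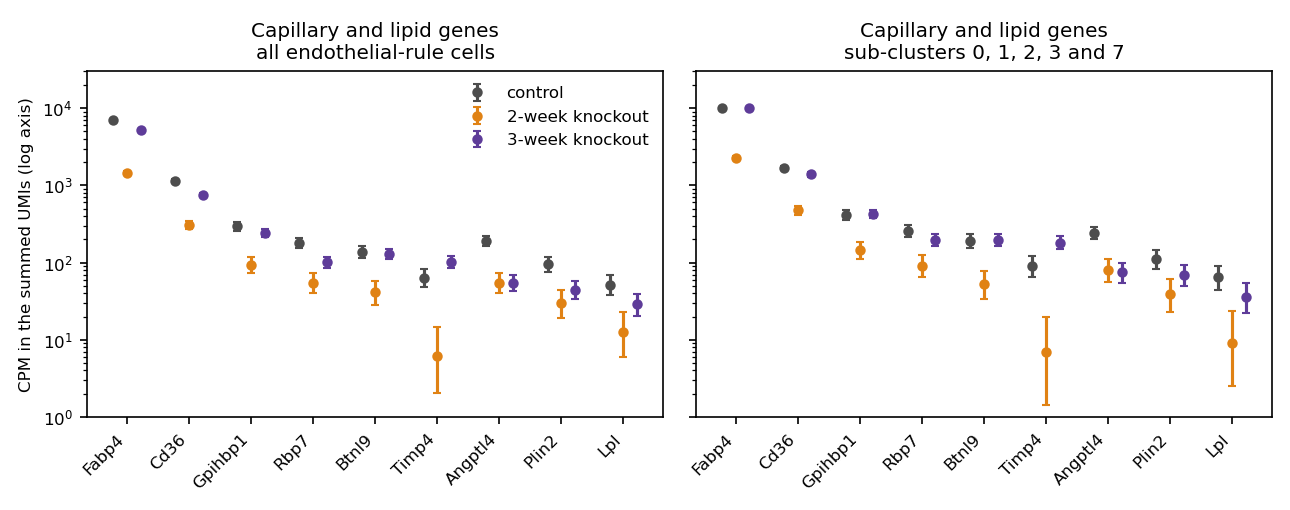
Levels of 9 capillary and lipid genes in CPM (log axis) in the control, 2-week and 3-week libraries, for all endothelial cells (left) and sub-clusters 0, 1, 2, 3 and 7 (right); bars are exact 95% Poisson intervals. The 2-week points lie lowest for Fabp4, Cd36, Gpihbp1, Rbp7, Btnl9 and Timp4 in both panels, and Angptl4 is low at both times.

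The difference was present inside the capillary-like sub-cluster 0, which itself was formed from these genes. There Fabp4 was at 19564, 8025 and 18538 CPM and was 2.44-fold lower (2.19 to 2.72) at 2 weeks in 15 cells against 23. Cd36 was 1.91-fold lower (1.54 to 2.40) and Gpihbp1 2.20-fold lower (1.35 to 3.77). Btnl9 was 1.22-fold lower (0.748 to 2.08), an interval that includes no difference. In the venous-like sub-cluster 3, with 8, 6 and 12 cells, Fabp4 was at 9886, 11438 and 16325 CPM and was not lower at 2 weeks. In sub-clusters 1 and 7 together it was at 3731, 205 and 352 CPM, low in both knockouts. The median cell depth of sub-cluster 0 was 5676, 2972 and 4822 UMIs. Adipocytes also make Fabp4, Cd36, Lpl and Plin2, and their defining genes Adipoq, Plin1, Cidec, Retn and Lep had no UMI in any member, with 2, 0 and 2 UMIs of Cfd.

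The other vessel lists differed among themselves at 2 weeks. Of 19 ranked pan-endothelial genes, 1 was at least 1.5-fold lower and none higher, with a median log2 ratio of -0.06. Of 9 arterial markers, 2 were higher and 2 lower. Of 8 venous markers, 5 were lower and 1 higher, with a median of -0.72 in all members and -0.50 in the 5 sub-clusters. Selp was at 652 CPM in the control, 349 in the 2-week and 408 in the 3-week knockout. Nrp1, a co-receptor for VEGF, was at 234 CPM in the control, 138 in the 2-week and 199.8 in the 3-week knockout. Kdr, the main VEGF receptor, was at 467 CPM in the control, 300.5 in the 2-week and 420.4 in the 3-week knockout, but it is one of the 6 genes that chose the cells, so its level is a description only. The 8 ranked lymphatic markers were all lower, with a median of -2.28, and the median was -0.42 in the 5 sub-clusters and 0.08 without the cells that had 2 lymphatic markers.

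Some genes were higher at 2 weeks. Of the same 3172 genes, 305 passed 1.5-fold above control and 242 below it when only the 5 sub-clusters were summed. Entpd1 (CD39), which breaks down extracellular ATP (chr19:40612366-40741602), was at 98.9 CPM in the control, 231 in the 2-week and 111 in the 3-week knockout and was 2.33-fold higher (1.80 to 3.05) at 2 weeks. Its levels in the 5 sub-clusters were 131, 303 and 191 CPM. Vwf, the adhesive protein that binds platelets, was at 229 CPM in the control, 365 in the 2-week and 199.8 in the 3-week knockout and was found in 43.9%, 71.9% and 49.6% of the cells. Vwf in the 5 sub-clusters was at 329, 461 and 359 CPM, a 2-week ratio of 1.40 against 1.6 in all members. These 2 were the higher ones of 5 ranked coagulation genes, and none was lower. Of 12 heat shock chaperones, 4 were lower and none higher, with Hspa1a at 275 CPM in the control, 109.7 in the 2-week and 196 in the 3-week knockout. The largest 2-week ratios above control belonged to keratinocyte genes and rested on few cells: 97.2% of the 495 Lor UMIs and 75.4% of the 452 Dmkn UMIs came from 1 cell each, and Mgp, with 64.0% of its UMIs in 1 cell, was at 10.4 and 2.28 CPM in the 5 sub-clusters of control and 2-week knockout.

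Between the 3-week knockout and the control, 3258 genes were ranked, of which 76 (2.33%) were at least 2-fold higher and 86 (2.64%) lower, and at 1.5-fold 275 (8.44%) were higher and 339 (10.4%) lower. Immediate early genes were higher as a group. Of 24 ranked, 12 were at least 1.5-fold higher and 2 lower, and the median log2 ratio was 0.59 beside 0.0029 over all ranked genes. In the 5 sub-clusters 5 were higher and 2 lower, with a median of 0.33, beside 325 higher and 321 lower of all 3258. At 2 weeks none of the 24 was higher and 3 were lower, with a median of -0.04.

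Klf2, the flow-induced transcription factor of quiescent endothelium (chr8:72319033-72321656), was measured at 623 CPM (572 to 678) in the control, 686 CPM (629.6 to 746) in the 2-week knockout and 2164 CPM (2084 to 2246) in the 3-week knockout. The 3-week library was high and the other 2 were close to each other. Against control it was 3.47-fold higher (3.17 to 3.82) at 3 weeks in all members and 1.83-fold higher (1.56 to 2.15) in the 5 sub-clusters. Fos, an AP-1 subunit (chr12:85473890-85477273), was at 2098 CPM in the control, 2727 in the 2-week and 6061 in the 3-week knockout, and at 3 weeks it was 2.89-fold higher (2.75 to 3.04) in all members and 1.52-fold higher (1.40 to 1.66) in the 5 sub-clusters. Jun, its partner, was at 2202 CPM in the control, 2006 in the 2-week and 4826 in the 3-week knockout. The growth response factor Egr1 was at 2199 CPM in the control, 2173 in the 2-week and 4403 in the 3-week knockout, and Atf3, a stress-induced factor, at 1446 CPM in the control, 1159.6 in the 2-week and 2894 in the 3-week knockout. Klf4, the other flow-responsive factor, was at 1400.1 CPM in the control, 1290.5 in the 2-week and 2903 in the 3-week knockout. Ier2 was at 385 CPM in the control, 387 in the 2-week and 851 in the 3-week knockout. The 3-week ratios were smaller in the 5 sub-clusters than in all members: 1.39 (1.28 to 1.51) for Jun, 1.43 (1.32 to 1.55) for Egr1, 1.37 (1.21 to 1.55) for Atf3 and 1.25 (1.11 to 1.41) for Klf4, all below 1.5-fold. Ier2 was above it there, at 1.76 (1.47 to 2.11).

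The 3-week ratios were larger in the lymphatic sub-clusters than in the capillary-like one, a difference that was not tested. In sub-clusters 5 and 8 together (10, 3 and 28 cells) Klf2 was at 1230.1, 1725 and 5295 CPM and was 4.30-fold higher (3.74 to 4.98) at 3 weeks. Fos was at 2222, 6391 and 13380.0 CPM there and was 6.02-fold higher (5.43 to 6.70). In the capillary-like sub-cluster 0 the same ratios were 1.27-fold higher (1.04 to 1.56) for Klf2 and 1.03-fold higher (0.921 to 1.15) for Fos, the second including no difference. Sub-clusters 2 and 3 together had Fos at 1684, 5038 and 3270.1 CPM, highest at 2 weeks. There Fos was 2.99-fold higher (2.60 to 3.45) and Klf2 2.97-fold higher (2.24 to 3.97) at 2 weeks. Sub-clusters 1 and 7 had the lowest levels in every library, with Fos at 125, 346 and 363 CPM. Their 3-week ratios were still 3.58 (1.81 to 7.75) for Klf2 and 2.91 (1.77 to 4.96) for Fos, but 0.864 (0.653 to 1.14) for Jun. The 3-week rise was therefore not limited to the lymphatic sub-clusters.

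**Figure D4:**
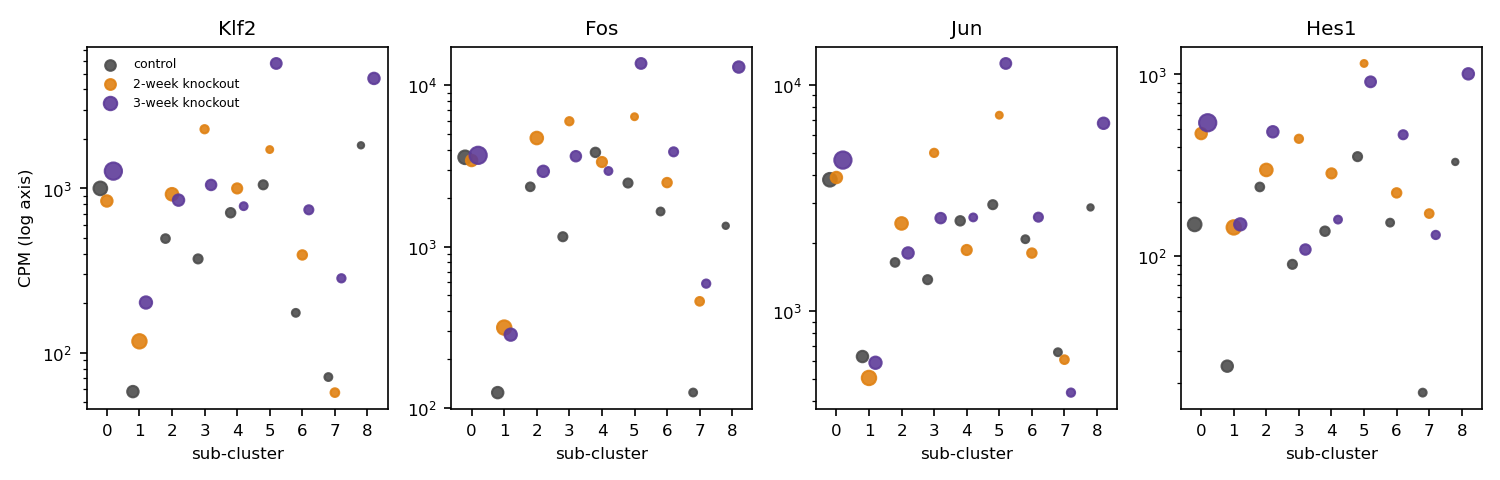
Klf2, Fos, Jun and Hes1 in CPM (log axis) in each sub-cluster (0 to 8) of the control, 2-week and 3-week libraries; the area of a point increases with its number of cells. Klf2, Fos and Jun are highest at 3 weeks in sub-clusters 5 and 8, lowest in sub-clusters 1 and 7, and close between libraries in sub-cluster 0, while Hes1 is lowest in the control in all 9 sub-clusters (sub-cluster 8 has no 2-week cell).

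The median of the list was also above 0 in other cell classes of these libraries. The 24 immediate early genes had 3-week median log2 ratios of 0.31 in keratinocytes, 0.65 in fibroblast-rich cells and 0.88 in mural cells, and 2-week medians of 0.44, 0.98 and 0.78, against -0.04 in the endothelial cells at 2 weeks. Fos in keratinocytes was at 2434, 6522 and 4536 CPM. The part of changes shared by all cells of a library was not tested.

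Hes1, the transcriptional repressor downstream of Notch (chr16:30064384-30067796), was higher in both knockouts and was spread over sub-clusters. It was measured at 163 CPM (137 to 192) in the control, 286 CPM (249.7 to 325) in the 2-week knockout and 539.6 CPM (500.3 to 581) in the 3-week knockout. The intervals of the 3 libraries did not overlap, but they cover counting error only. Taken cell by cell, Hes1 had a lower quartile of 0 in all 3 libraries. Against control it was 1.75-fold higher (1.41 to 2.17) at 2 weeks and 3.31-fold higher (2.76 to 3.99) at 3 weeks. In the 5 sub-clusters the levels were 106, 249 and 346 CPM. In sub-cluster 0 alone Hes1 was at 149.8, 473 and 543 CPM, and in the lymphatic sub-clusters at 348, 1149.7 and 953 CPM. Hes1 was also higher in the knockouts in keratinocytes, at 46.8, 195 and 122 CPM, and in fibroblast-rich cells, at 131, 474 and 422 CPM. The rest of the Notch list was thinly measured: 5 of 12 genes were ranked at 2 weeks and 3 at 3 weeks, where Hes1 was the only one at least 1.5-fold higher and none was lower.

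Several secreted and metabolic genes were low in the 3-week knockout. Adamts9, a secreted metalloproteinase of the extracellular matrix (chr6:92772699-92943492), was measured at 709 CPM (654 to 767) in the control, 469 CPM (423 to 519) in the 2-week knockout and 153 CPM (133 to 176) in the 3-week knockout. These intervals did not overlap, but they cover counting error only and not the spread between cells or mice. Adamts9 was 4.63-fold lower (3.94 to 5.46) at 3 weeks, and the 5 sub-clusters held 955, 564 and 211 CPM. In sub-cluster 0 it was low at both times, at 443, 21.5 and 66.2 CPM. The order of libraries was not the same in every sub-cluster, with 526, 456 and 860 CPM in sub-cluster 4 and 730, 1146 and 415 CPM in sub-cluster 7. Slco2a1, the prostaglandin transporter (chr9:102988712-103096002), was at 261 CPM in the control, 232 in the 2-week and 46.5 in the 3-week knockout and was 5.62-fold lower (4.21 to 7.60) at 3 weeks. Within the 5 sub-clusters it was at 219.6, 331 and 63.3 CPM, which is 3.47-fold lower at 3 weeks and above control at 2 weeks. Hmox1, heme oxygenase (chr8:75093621-75100589), was at 133 CPM in the control, 213 in the 2-week and 27.1 in the 3-week knockout. It was 1.6-fold higher (1.26 to 2.04) at 2 weeks and 4.92-fold lower (3.35 to 7.40) at 3 weeks, and the 5 sub-clusters held 151, 289.8 and 22.7 CPM. Ets1, a transcription factor of endothelium found in 92.7%, 90.6% and 87.0% of the cells, was at 979 CPM in the control, 847 in the 2-week and 459 in the 3-week knockout and was 2.13-fold lower (1.92 to 2.37) at 3 weeks. Ets1 was lower in both knockouts in each of the other cell classes too, in keratinocytes at 133, 54.8 and 51.0 CPM.

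**Figure D5:**
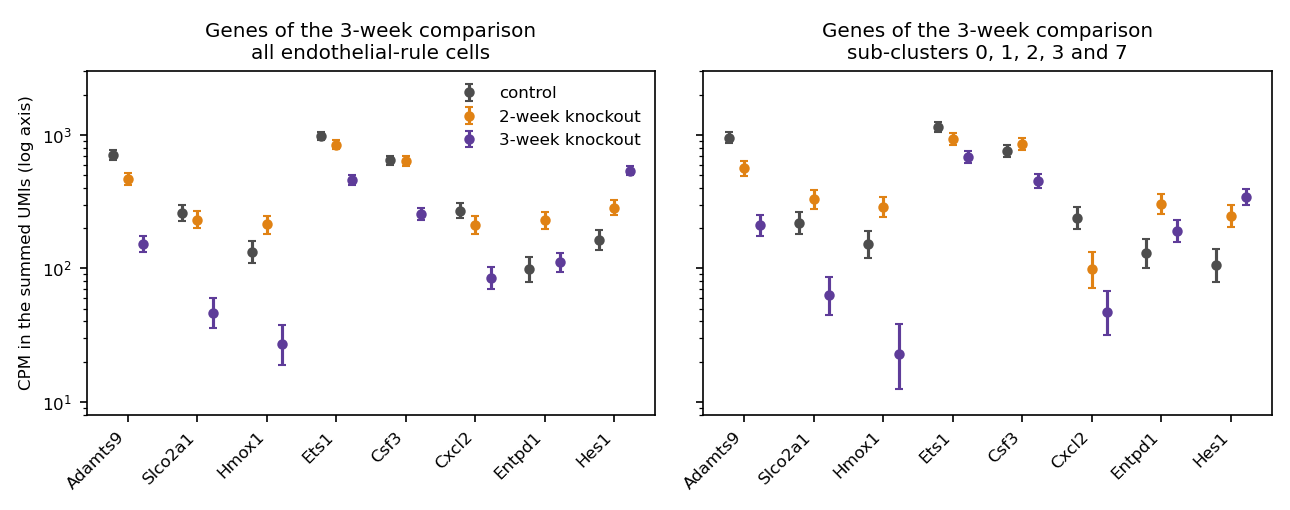
Levels of 8 genes in CPM (log axis) in the control, 2-week and 3-week libraries for all endothelial cells (left) and sub-clusters 0, 1, 2, 3 and 7 (right), with exact 95% Poisson intervals. Adamts9, Slco2a1, Hmox1, Ets1, Csf3 and Cxcl2 are lowest at 3 weeks in both panels, Hes1 is lowest in the control, and Entpd1 is highest at 2 weeks.

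Cytokine and chemokine genes were split. NF-kB is the transcription factor of inflammatory activation, and of 13 ranked NF-kB targets 5 were at least 1.5-fold lower at 3 weeks and none higher, with a median log2 ratio of -0.34 in all members and -0.27 in the 5 sub-clusters. Cxcl2, a neutrophil chemokine, was at 271 CPM in the control, 212 in the 2-week and 85.2 in the 3-week knockout and was 3.19-fold lower (2.53 to 4.03) at 3 weeks, with 238, 98.1 and 47.1 CPM in the 5 sub-clusters. Csf3, the granulocyte colony stimulating factor, was at 644 CPM in the control, 642 in the 2-week and 256 in the 3-week knockout. It was 2.51-fold lower (2.19 to 2.89) at 3 weeks, with 756, 853 and 449.5 CPM in the 5 sub-clusters. Its 3-week ratio was 0.511 (0.418 to 0.625) in sub-clusters 2 and 3 and 0.206 (0.130 to 0.320) in the lymphatic ones. In sub-clusters 1 and 7 it was 0.869 (0.661 to 1.14), which includes no difference, and sub-cluster 1 alone rose from 224 to 435 CPM. Nfkb1 was at 354 CPM in the control, 236 in the 2-week and 176 in the 3-week knockout. Cxcl10, a chemokine induced by interferon, went the other way, at 92.0 CPM in the control, 131 in the 2-week and 165 in the 3-week knockout. Cxcl10 in the 5 sub-clusters was at 97.4, 45.6 and 239 CPM, lowest at 2 weeks. It was a leading gene of sub-cluster 2, at 388 CPM over the 3 libraries, but was found in only 14.6% of those cells. Its level there rested on few cells. Cxcl1 and Il6 were left out of the 3-week ranking because mural cells of the control had more than 5 times their level, so they are given as levels. Cxcl1 was at 471 CPM in the control, 544 in the 2-week and 136 in the 3-week knockout, but 316 of its 436 UMIs at 2 weeks lay in the mural-led sub-cluster 4. Cxcl1 in the 5 sub-clusters was at 572, 201 and 157 CPM, so its 2-week level was above control in all members and below it there. Il6 was at 794 CPM in the control, 1149.6 in the 2-week and 485 in the 3-week knockout, and in the 5 sub-clusters at 1181, 1321 and 860.1 CPM.

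The promoters of these 4 genes are shown because their levels parted while all carry the letters of an NF-kB site. RefSeq promoters of build GRCm38.p6, the assembly of mm10, were searched over 250 bases before the start for GGG, any 3 bases and TTCC, a form of the NF-kB site, on both strands with overlapping matches kept, and the bases 170 to 31 before the start are printed 5′ to 3′ with every match in capitals. They lie at chr5:90891075-90891214 on the plus strand, chr5:90903729-90903868 on the plus strand, chr5:92348920-92349059 on the minus strand and chr5:30012944-30013083 on the plus strand.
Cxcl1: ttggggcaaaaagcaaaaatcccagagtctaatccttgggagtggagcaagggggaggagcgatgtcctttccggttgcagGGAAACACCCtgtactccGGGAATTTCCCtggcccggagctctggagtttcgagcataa
Cxcl2: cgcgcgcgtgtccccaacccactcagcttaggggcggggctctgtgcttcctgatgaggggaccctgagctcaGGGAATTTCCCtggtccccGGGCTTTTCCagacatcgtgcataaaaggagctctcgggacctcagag
Cxcl10: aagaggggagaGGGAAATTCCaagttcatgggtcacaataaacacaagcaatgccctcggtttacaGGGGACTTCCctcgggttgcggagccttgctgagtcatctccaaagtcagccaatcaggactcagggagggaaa
Il6: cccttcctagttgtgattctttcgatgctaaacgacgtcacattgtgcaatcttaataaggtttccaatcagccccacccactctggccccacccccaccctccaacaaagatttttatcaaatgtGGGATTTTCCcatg
Cxcl1 held 3 matches and Cxcl2 3, of which 2 in each overlap in a run of 11 bases read on both strands, while Cxcl10 held 2 and Il6 held 1. Cxcl2 and Cxcl10, with 3 and 2 matches, differed from control in opposite directions at 3 weeks. The letters were found in 1527 of all 32851 promoters in the table (4.65%) and in 4 of 10 ranked NF-kB targets with a promoter in it (Cxcl2, Nfkb2, Nfkbia and Tnfaip3). The letters TGACGTCA, the site of cAMP-responsive factors, were found in 508 of all promoters (1.55%) and in 2 of 19 ranked immediate early genes, Btg2 and Dusp1. A match describes only the letters of the window. Of 13 ranked NF-kB targets 10 had a promoter in the table, and of 24 ranked immediate early genes 19 had one.

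The interferon response list depended on which cells were summed. At 3 weeks 6 of the 23 interferon response genes measured well enough were lower by 1.5-fold or more and 1 was higher, with a median log2 ratio of -0.40. The 5 sub-clusters had 3 lower and none higher, with a median of 0.01. At 2 weeks 3 of 24 were higher and 1 lower. Of 13 MHC class I genes none was higher or lower at 3 weeks. Cxcl9, an interferon-induced chemokine, had 67, 27 and 13 UMIs. Of 12 endothelial junction genes 1 was higher and none lower at 3 weeks, of 17 actin, myosin and focal adhesion genes 1 was higher and none lower, and of 7 YAP and TAZ targets 3 were higher and none lower, with a median of -0.25. In the 5 sub-clusters each of the junction, actin and YAP lists had none higher and 1 lower. Of 13 capillary markers 1 was higher and 2 were lower at 3 weeks, with a median of -0.22, and of 8 lipid genes 4 were lower, with a median of -0.57 in all members and -0.19 in the 5 sub-clusters. Nuclear genes of oxidative phosphorylation had medians of 0.28 at 2 and 0.30 at 3 weeks over 20 genes.

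Among the 12 largest 3-week ratios below control were Tpm3-rs7, Hmga1b and Ftl1-ps1, which are named as copies of other genes and whose counts are uncertain because reads may be shared with those genes, and also Bc1, a short repeat-related RNA, and Wdr89. Wdr89 was at 543 CPM in the control, 405 in the 2-week and 58.8 in the 3-week knockout in the endothelial cells and at 759.8, 454 and 87.5 CPM in keratinocytes, so it was low in that library in other cells as well. The largest 3-week ratios above control belonged to keratinocyte genes: 95.4% of the 346 Krt79 UMIs and 89.1% of the 722 Krt17 UMIs came from 1 cell each. Among the other genes high at 3 weeks, Plp2 was at 17.2 CPM in the control, 49.9 in the 2-week and 75.1 in the 3-week knockout and its largest cell held 7.22% of its 3-week UMIs. Otud1, a deubiquitinase, was at 12.6 CPM in the control, 13.7 in the 2-week and 64.3 in the 3-week knockout. Tgfb2, a TGF-beta ligand, was at 17.2 CPM in the control, 33.7 in the 2-week and 71.2 in the 3-week knockout. Most of their 3-week UMIs, 83 of Otud1 and 92 of Tgfb2, lay outside the 5 sub-clusters. Inside them Otud1 had 1, 2 and 4 UMIs, with a 3-week ratio of 3.13 (0.310 to 154). Tgfb2 had 3, 6 and 10 UMIs there, with a ratio of 2.61 (0.672 to 14.8). Both intervals include no difference. Adm, the vasodilator adrenomedullin, was at 23 CPM in the control, 19.9 in the 2-week and 77.4 in the 3-week knockout, and its log2 ratio at 3 weeks was -0.51 without the cells that had 2 lymphatic markers. Low at 3 weeks were Col13a1, a transmembrane collagen, at 69.0 CPM in the control, 44.9 in the 2-week and 13.2 in the 3-week knockout, and Oaf at 114 CPM in the control, 59.8 in the 2-week and 26.3 in the 3-week knockout.

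Piezo1, the mechanically gated channel that is floxed here (chr8:122481698-122551329), was measured in the endothelial cells at 116 CPM (94.6 to 141) in the control, 88.5 CPM (69.1 to 112) in the 2-week knockout and 73.6 CPM (59.5 to 89.9) in the 3-week knockout, from 101, 71 and 95 UMIs. The control and 2-week intervals overlap, and with each cell thinned to 2000 UMIs the 2-week log2 ratio was 0.16 in place of -0.37. The ratio to control was 0.763 (0.555 to 1.04) at 2 weeks and 0.634 (0.474 to 0.847) at 3 weeks. In keratinocytes, the cells of the Cre driver, Piezo1 was at 38.6, 29.7 and 16.2 CPM. The libraries read transcript 3′ ends and the labels do not say which exons are floxed, so a count here does not check the deletion. Its relative Piezo2 had 34, 2 and 43 UMIs, of which the lymphatic sub-clusters held 29, 1 and 38, which is most of them in the control and at 3 weeks.

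The 2 knockouts were compared over 3285 genes. At 3 weeks 124 (3.77%) of them were higher by 2-fold or more and 74 (2.25%) lower, and 9.65% and 10.3% passed 1.5-fold. Ages and Td alleles differ between them. Of 12 ranked lymphatic markers all were higher at 3 weeks, led by Nts, Lyve1 and Reln, and without the cells that had 2 lymphatic markers the count of 124 became 50. Nts, Lyve1 and Reln were found in 14.5%, 13.7% and 21.4% of 3-week cells and 1.04%, 1.04% and 2.08% of 2-week cells. They passed the 10% ranking limit only through the library where they were high, so the count of 12 is a description only. The comparison shares the 2-week library with the first one, so its capillary values add no observation.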

How the data were processed

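The deposited counts are UMI counts per gene and cell barcode from 3 libraries of 10x 3′ reads, made by the authors with Cell Ranger 6.1.2 on mm10, per the submitters' processing notes. Whether intronic reads were counted is not given in the sources used here. Barcodes were selected by the marker limits given above, UMIs were summed per library and divided by the member total to give CPM, and ratios were taken on log2(CPM + 5). A gene was ranked with at least 50 UMIs over both libraries, 50 CPM and 10% of member cells in 1 library, and a level of at least a share of 1 in 5 of any other class. Named were the 12 largest ratios of at least 2-fold in each direction, Piezo1, up to 4 genes per list and the 20 leading identity genes. Others (such as Cxcl1, Il6 and Piezo2) were chosen after their values were seen. Cells were clustered with scanpy 1.11.5 (2000 variable genes, 20 components, 15 neighbours, resolution 0.8). TMM factors came from edgeR 4.0.16, with no test. The ratio and interval steps were tested on simulated Poisson counts, which hold no spread between cells. Cell selection, clustering and thinning were not tested in this way. With 1 library a group, no p-value was computed. The members and the 40 lists were chosen with earlier results of these data known.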

Additional observations from a re-analysis of the deposited data

Results flagged for a closer look

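The lymphatic marker list had opposite signs at the 2 times in all members. Its median log2 ratio to control was -2.28 in the 2-week knockout and 0.42 in the 3-week knockout. The medians are not over the same genes: 8 were ranked at 2 weeks and 12 at 3 weeks. Without the lymphatic, mural and keratinocyte-led sub-clusters the medians were -0.42 and -0.0095, which do not have opposite signs. The difference in all members was not tested, since each group is 1 library, and both ratios share the control. The numbers of cells with 2 lymphatic markers, 12, 3 and 30 in the control, 2-week and 3-week libraries, moved with the medians of all members. The part of these cells in the result was not tested.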

How the results depend on the processing

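No paired analysis was possible because each group is 1 library. A mean weighting sub-clusters equally could not be computed, since no sub-cluster had 20 cells in every library. Counts of genes at least 2-fold apart depended on the settings; the order here is 2 weeks higher (50) and lower (78), 3 weeks higher (76) and lower (86), and 3 against 2 weeks higher (124) and lower (74). Thinned to 2000 UMIs they were 23, 31, 34, 38, 28 and 31. With no minimum they were 132, 211, 240, 160, 334 and 130, and with at least 200 UMIs 19, 19, 35, 41, 44 and 36. A pseudocount of 20 CPM gave 26, 48, 54, 82 and 44 for all but the second. A total without mitochondrial, ribosomal, Malat1 and Gm42418 UMIs gave 78 for the first, 130 for the fourth and 115 for the sixth. Leaving out cells with 2 lymphatic markers gave 49 for the second and 50 for the fifth. At least 2 of 6 markers gave 142 and 141 at 3 weeks. Of the alternatives chosen after seeing the data, the 5 sub-clusters gave 40 for the second, 56 for the fourth and 50 for the fifth, and leaving out each gene's highest cell gave 26 for the first. The pseudocount setting kept the same genes and cells and shrinks ratios of low genes by construction; the other settings change the genes or cells counted, or the total, and further causes were not tested. Thinning gave a Piezo1 log2 ratio of 0.16 at 2 weeks and shares of 1.27% in the control and 0.971% at 3 weeks. Genes at least 4-fold above other cells numbered 272, and 148 against mural cells only. At 2 weeks, reversed log2 ratios without cells with 2 lymphatic markers were 0.51 for Abi3bp, 0.39 for Fxyd6, 0.34 for Mmrn1, 0.30 for Prox1 and 0.0835 for the lymphatic list. Under 0.1% keratin they were -0.13 for Lgalsl, -0.13 for Mrps26, -0.11 for Ppl and -0.29 for Trim29, and thinned -0.75 for Lgalsl and -1.60 for Mrps26. In the 5 sub-clusters they were 0.94 for Abi3bp and -1.08 for Mgp. At 3 weeks they were -0.51 for Adm without lymphatic cells, -0.21 for Adm in the 5 sub-clusters and -0.0025 for Krt79 under 0.1% keratin. Of the other values of named genes, 913 stayed inside their counting interval and 272 moved outside it. A reversal was marked only for genes at least 2-fold apart. Smaller ratios among these values could change sign unmarked, as Cxcl1 did at 2 weeks in the 5 sub-clusters. The 95% intervals cover counting error only, and sub-clusters of under 30 cells limit every value within them.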
